A study of Saccharomyces cerevisiae with 2 samples.

Results

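Transfer RNA (tRNA) genes were examined in RNA sequencing of 2 strains of the budding yeast Saccharomyces cerevisiae, UV02_HG and MF02. The members were all rows of the deposited expression table whose identifier gives an amino acid letter and an anticodon, such as tC(GCA)B. They numbered 299 of 7163 features. The last capital letter of an identifier gives the chromosome, from A for chromosome I to P for chromosome XVI, with Q for the mitochondrial genome, and a closing number separates copies on the same chromosome. Loci with the same amino acid letter and anticodon formed a family, and the values of a family were summed over its loci. UV02_HG is named in the labels with no genotype beyond the strain name, and MF02 is called wild type. Both strains were in mid-exponential phase and grew in 40% (w/v) glucose, which the labels call high glucose.

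A tRNA carries an amino acid to the ribosome and reads the codon in the messenger RNA through its anticodon. In yeast the nuclear tRNA genes are transcribed by RNA polymerase III, whose factor TFIIIC binds sequences inside the gene (the A box and the B box) and whose transcripts end at a run of T. The precursor is trimmed at both ends, spliced where the gene has an intron, given its CCA end, modified at many bases, exported and charged by an aminoacyl-tRNA synthetase. Most families have several nuclear copies, and the copies of a family are often identical in sequence.

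The values are FPKM, in which the fragments of a gene are divided by its length and by the fragments counted in the whole library. Each strain has 1 sample and 2 columns of values, so no strain difference has a replicate check, no p-value was computed, and differences between columns may be technical only. The series' design text speaks of sequencing in duplicate, and whether the columns of a strain came from separate cultures is not given in the sources used here. Counted reads numbered 12507299 and 13040931 in the UV02_HG columns and 12796339 and 15144991 in the MF02 columns. Of the 662 tRNA values above 0, 661 turned into whole reads, within 0.01, when multiplied by the mature tRNA length in the R64 reference and by these totals. The remaining value, of 0.800 FPKM for tX(XXX)D in UV02_HG column 1, had no R64 gene to give a length and was not converted. In a gene of 73 nt, 1 read was worth 1.10 and 1.05 FPKM in the UV02_HG columns and 1.07 and 0.904 FPKM in the MF02 columns. The tRNA values therefore rest on few reads, and read numbers are given beside them. Intervals on read ratios are exact 95% intervals and cover counting error only.

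Several mature sequences are shown here because the comparisons below turn on their families and on how alike the copies are. They were read from RefSeq's R64 assembly, written as the gene's own strand in DNA letters, with introns removed and the anticodon in capitals. The 4 genes of tC(GCA), which insert cysteine, share a single mature sequence, and so do the 3 genes of tS(UGA), the 7 of tH(GUG), the 3 of tL(UAG) and the 5 of tA(UGC).
Cysteine tC(GCA): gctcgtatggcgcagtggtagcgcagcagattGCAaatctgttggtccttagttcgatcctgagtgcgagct
Serine tS(UGA): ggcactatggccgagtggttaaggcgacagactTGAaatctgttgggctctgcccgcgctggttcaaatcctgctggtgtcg
Histidine tH(GUG): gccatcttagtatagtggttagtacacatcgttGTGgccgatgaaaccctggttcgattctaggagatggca
Leucine tL(UAG): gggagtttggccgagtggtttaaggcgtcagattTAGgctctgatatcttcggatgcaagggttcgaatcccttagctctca
Alanine tA(UGC): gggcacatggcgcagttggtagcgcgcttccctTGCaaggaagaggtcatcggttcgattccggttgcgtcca

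Other families hold more than 1 mature sequence. Of the 10 phenylalanine genes tF(GAA), 8 carry the first form below and 2, on chromosomes IV and XIV, the second. The methionine family tM(CAU) joins the initiator, of 72 nt and present in 5 genes, with the elongator, of 73 nt and also in 5 genes. Of the serine genes tS(GCU), 2 carry a form of 82 nt and the gene on chromosome XII carries one of 80 nt.
tF(GAA), 8 genes: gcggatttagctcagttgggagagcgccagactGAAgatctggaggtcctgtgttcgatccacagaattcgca
tF(GAA), 2 genes: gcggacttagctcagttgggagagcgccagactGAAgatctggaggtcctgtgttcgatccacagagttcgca
tM(CAU), initiator: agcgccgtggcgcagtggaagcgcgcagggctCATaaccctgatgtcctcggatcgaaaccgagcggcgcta
tM(CAU), elongator: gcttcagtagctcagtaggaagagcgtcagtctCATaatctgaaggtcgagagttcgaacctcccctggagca
tS(GCU), 82 nt: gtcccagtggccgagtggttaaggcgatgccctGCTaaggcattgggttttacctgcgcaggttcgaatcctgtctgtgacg
tS(GCU), 80 nt: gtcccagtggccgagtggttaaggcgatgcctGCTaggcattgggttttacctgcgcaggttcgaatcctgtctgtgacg

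Of the 299 loci, 275 were nuclear and 24 mitochondrial by identifier. All nuclear loci except tX(XXX)D matched R64 tRNA genes of the same amino acid, anticodon and chromosome, and 151 could be placed at a single gene. The numbered copies on a chromosome could not be placed individually. In 22 of the 35 nuclear families with several copies, every R64 gene has the same mature sequence. How reads that match several copies were assigned is not given in the sources used here, so values of single copies in such families are uncertain. The 661 converted values were whole reads, so they show no fractions of reads split among copies. Placing each read with several matches at a single copy would leave the family sums as they are. Dropping such reads would lower the sums, could change the ranks of families, and would add to the loci at 0.

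tRNA reads were more frequent in UV02_HG. The UV02_HG columns held 3301 and 3867 tRNA reads, against 1217 and 462 in the MF02 columns, that is, 264 and 297 per 1000000 counted reads in UV02_HG and 95.1 and 30.5 in MF02. Both UV02_HG columns lay above both MF02 columns. Over pooled columns the read ratio of UV02_HG to MF02 was 4.67 (4.43 to 4.93). The MF02 columns differed from each other by 3.12-fold in summed tRNA FPKM, against 1.13-fold between the UV02_HG columns, so the ratio depends on which MF02 column is used. It was 2.78 and 3.13 in FPKM sums against MF02 column 1 and 8.66 and 9.74 against MF02 column 2. The sum of FPKM over all features was also higher in UV02_HG, by 1.85-fold and 1.84-fold against MF02 column 1 and by 2.53-fold against column 2 in both UV02_HG columns. As a share of that sum, tRNA loci took 0.121% and 0.136% in UV02_HG and 0.0801% and 0.0352% in MF02.

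Locus by locus, 201 tRNA genes had at least 1 FPKM on average in either strain and were kept. A locus ratio is the log2 of (mean FPKM + 1) in UV02_HG over the same in MF02, a scale that understates differences of weakly measured loci. Its median over the kept loci was 1.5 (1.07 to 2.16 over the 4 pairs of single columns), against -0.89 (-1.12 to -0.49) over all 6291 features kept by the same rule. Without MF02 column 1 the tRNA median was 2.25. By this ratio 143 loci were at least 2-fold higher in UV02_HG, which is 71.1% of the kept loci, while 14.7% of all kept features passed the same fold. Another 5 loci were at least 2-fold lower, where 47.2% of all features were, and 53 were in neither class. The rule also keeps loci that reach 1 FPKM in UV02_HG alone, so the share of 71.1% depends on the filter. With no filter the median over all 299 loci was 0.86, with the same 143 loci higher and 5 lower. In all 4 column pairs 79 loci passed 2-fold higher, against 8.68% of all features, and 0 passed 2-fold lower, against 24.9%. Of the 5 lower loci, tQ(UUG)D2, tM(CAU)O2 and tN(GUU)P each had 2 reads in MF02 column 1 and none elsewhere, tG(GCC)D1 had 7 reads in MF02 column 1 and none elsewhere, and tA(UGC)O is described below.

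Other short transcripts stood to the same side. The small nucleolar and small nuclear RNA features, whose identifiers start with snR, had a median of 2.62 (2.16 to 3.22). Of them 76 of 78 were at least 2-fold higher in UV02_HG, against 14.7% of all kept features. Coding genes of up to 300 nt had a median of 1.25, with 156 of 271 at least 2-fold higher, and longer coding genes had a median of -1.11, with 453 of 5424 at least 2-fold higher. Between the MF02 columns the same classes also parted. The median log2 ratio of MF02 column 2 to column 1 was -1.05 for tRNA loci, -1.05 for snR features, -0.72 for short coding genes and 0.57 for longer ones. In MF02 column 2, 109 tRNA loci were at least 2-fold below column 1, where 10.2% of all features were, and 4 were at least 2-fold above it, where 28.0% of all features were. The tRNA median thus lay between those of the other short classes. Transcript length and library therefore moved with the tRNA difference, and their part in it was not tested. Strain and library cannot be told apart with 1 sample per strain.

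Among other products of RNA polymerase III, RPR1, the RNA subunit of the RNase P that trims the leading end of tRNA precursors, had 2011 and 2697 FPKM in UV02_HG, against 633 and 45.6 in MF02. SCR1, the RNA of the signal recognition particle, had 3337 and 3534 FPKM in UV02_HG, against 1193 and 86.1 in MF02. Both were lower in MF02 column 2 than in column 1, as the tRNA loci were. The U6 small nuclear RNA snR6 had 7.14 and 15.1 FPKM in UV02_HG, against 4.88 and 0 in MF02. RDN5-1, a 5S ribosomal RNA gene, was near 1 FPKM in all columns, at 1.32 and 0.634 in UV02_HG and 1.29 and 0.546 in MF02.

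At the level of families, 35 of the 41 nuclear families with an anticodon were at least 2-fold higher in UV02_HG, 29 of them in all 4 column pairs, and 0 were at least 2-fold lower. Of all kept features, taken singly and not summed, 14.7% passed 2-fold higher, 8.68% in all 4 column pairs, and 47.2% passed 2-fold lower. The family ratios had a median of 2.03 on the log2 scale. They ran between -0.36 and 3.04. Both UV02_HG columns lay above both MF02 columns in 35 families and below them in 1, and the columns overlapped in 5. Among all kept features both UV02_HG columns lay above both MF02 columns in 20.7% and below them in 56.4%. A total of 33 families had at least 20 reads over the 4 columns. MF02 column 1 was above column 2 in 39 families.

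**Figure D1:**
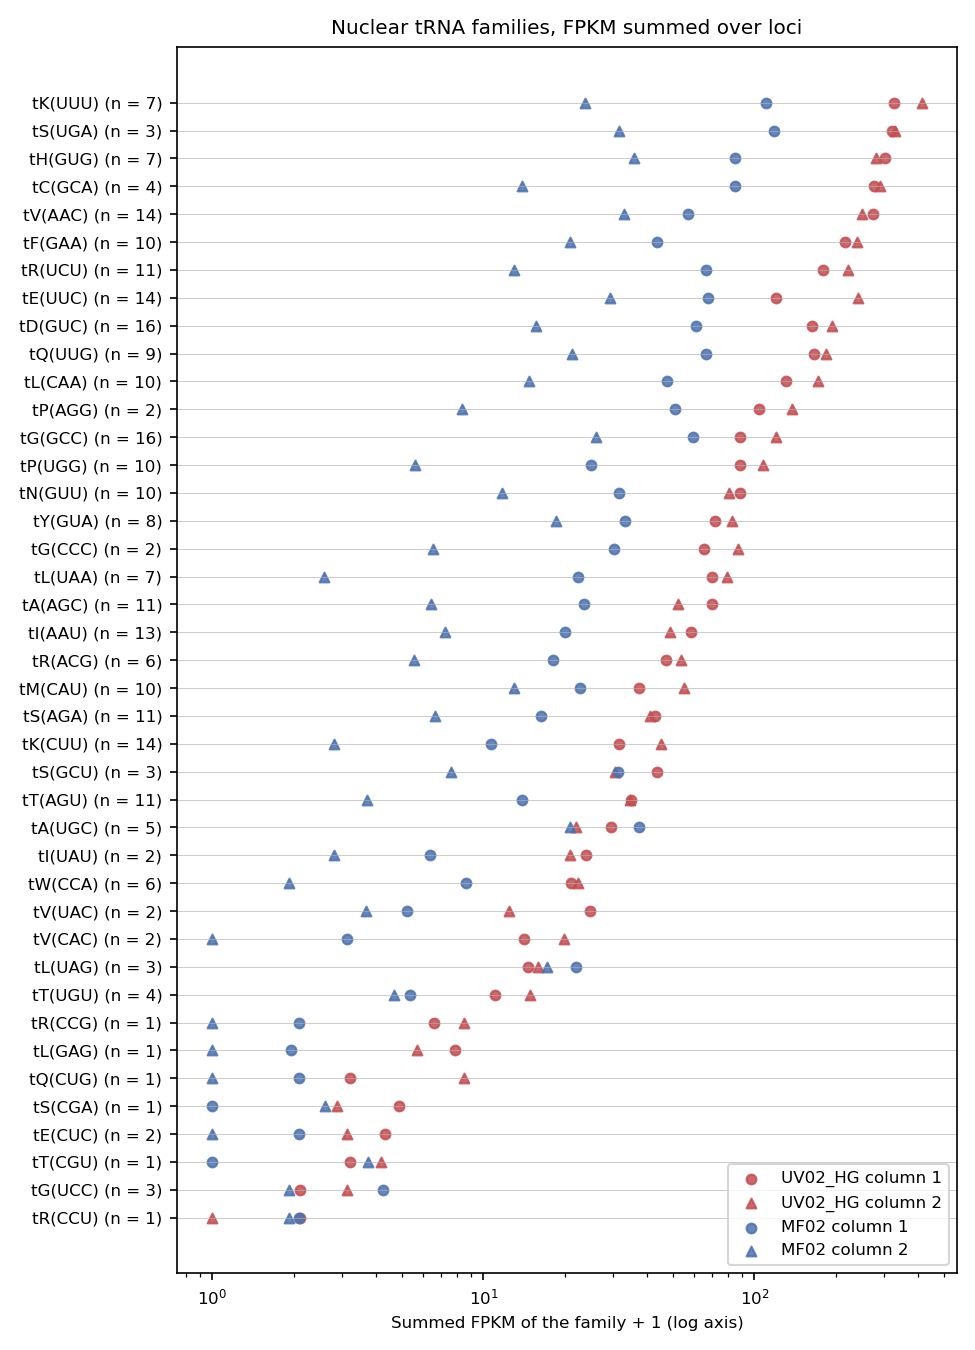
Summed FPKM + 1 on a log axis for each nuclear tRNA family, with the number of loci in brackets, circles for column 1 and triangles for column 2 of UV02_HG (red) and MF02 (blue). In 35 of 41 families both red points lie to the right of both blue points, an order found in 20.7% of all kept features. In 39 families the MF02 circle lies to the right of the MF02 triangle.

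The families with the highest summed FPKM were largely shared between the strains. In UV02_HG the 8 with the highest summed level were, in order, lysine tK(UUU), serine tS(UGA), histidine tH(GUG), cysteine tC(GCA), valine tV(AAC), phenylalanine tF(GAA), arginine tR(UCU) and glutamate tE(UUC). In MF02 serine tS(UGA) led, followed by the lysine, histidine and cysteine families just named, glutamate tE(UUC), valine tV(AAC), glutamine tQ(UUG) and glycine tG(GCC), so that 6 families stood in both lists. The lysine family tK(UUU), which reads AAA and AAG codons and whose genes hold an intron, had 327 and 413 FPKM in UV02_HG, against 109 and 22.6 FPKM in MF02. Its log2 ratio was 2.47 (1.58 to 4.13). The serine family tS(UGA) had 321 and 330.1 FPKM in UV02_HG, against 117 and 30.6 FPKM in MF02. In neither of these families did the columns of the strains overlap. The histidine family tH(GUG) had 302 and 281 FPKM in UV02_HG, against 83.6 and 34.8 FPKM in MF02. Neighbours in the order were not separate, since the UV02_HG columns of tK(UUU) and tS(UGA) overlapped and so did those of tH(GUG) and tC(GCA).

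The families with the largest ratios among those of at least 10 FPKM were valine tV(CAC), phenylalanine tF(GAA), proline tP(UGG), leucine tL(UAA), valine tV(AAC), cysteine tC(GCA), lysine tK(CUU) and lysine tK(UUU). For tV(CAC), a valine family, the log2 ratio of 3.04 rested on 12 and 18 reads in UV02_HG, against 2 and 0 in MF02, and its read ratio of 16.4 had the wide interval of 4.16 to 142. The phenylalanine family tF(GAA) had 216 and 238 FPKM in UV02_HG, against 42.8 and 19.9 FPKM in MF02. Its log2 ratio was 2.82 (2.31 to 3.52) and its read ratio 7.48 (5.72 to 9.93), beside a pooled tRNA read ratio of 4.67. The family was picked by its ratio in these data, so its interval is no test against the pooled value. The cysteine family tC(GCA) had 274 and 289.7 FPKM in UV02_HG, against 83.6 and 12.8 FPKM in MF02. Its read ratio was 6.24 (4.98 to 7.88), and its share of all tRNA reads was 7.48% and 7.03% in UV02_HG and 6.33% and 3.03% in MF02. The valine family tV(AAC) had 272 and 248 FPKM in UV02_HG, against 56.0 and 32.1 FPKM in MF02. The remaining 4 families of the list had log2 ratios between 2.47 and 2.69, all with UV02_HG columns above MF02 columns.

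A few families did not share in the difference. The leucine family tL(UAG), whose anticodon reads CUN codons, had 14 and 16 reads in UV02_HG and 22 and 20 reads in MF02. Its summed level was 13.7 and 15 FPKM in UV02_HG, against 21 and 16.1 FPKM in MF02. Both UV02_HG columns lay below both MF02 columns, in this tRNA family alone, and the log2 ratio was -0.35 (-0.58 to -0.10). Among all kept features that column order was found in 56.4%, and the median log2 ratio was -0.89. The read ratio of tL(UAG) was 0.78 (0.47 to 1.28), so that the strains did not differ beyond counting error. The pooled tRNA read ratio was 4.67. Since tL(UAG) was picked by its low ratio, its interval is no test against that value. As a share of all tRNA reads tL(UAG) took 0.42% and 0.41% in UV02_HG and 1.81% and 4.33% in MF02. The other leucine families stood far from it, with log2 ratios of 2.28 for tL(CAA), 2.58 for tL(UAA) and 2.19 for tL(GAG).

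The alanine family tA(UGC) had 26 and 20 reads in UV02_HG and 34 and 22 reads in MF02. Its columns overlapped, its log2 ratio was -0.18 (-0.76 to 0.50) and its read ratio 0.90 (0.59 to 1.35). The other alanine family, tA(AGC), had 63 and 49 reads in UV02_HG and 21 and 6 reads in MF02, a log2 ratio of 2.03. The share of tA(UGC) in all tRNA reads was 0.79% and 0.52% in UV02_HG, against 2.79% and 4.76% in MF02. Of the serine families, tS(GCU) had 43 and 31 reads in UV02_HG and 31 and 8 reads in MF02. Its columns overlapped by a narrow margin, with a log2 ratio of 0.94 (-0.04 to 2.53) and a read ratio of 2.08 (1.39 to 3.14). The sign for tL(UAG) and tA(UGC) depends on scaling. Upper quartile scaling gave 0.29 and 0.46 for them, trimmed mean scaling 0.39 and 0.54, centring on the median feature 0.54 and 0.71, and rescaling to equal FPKM totals -1.39 and -1.20.

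**Figure D2:**
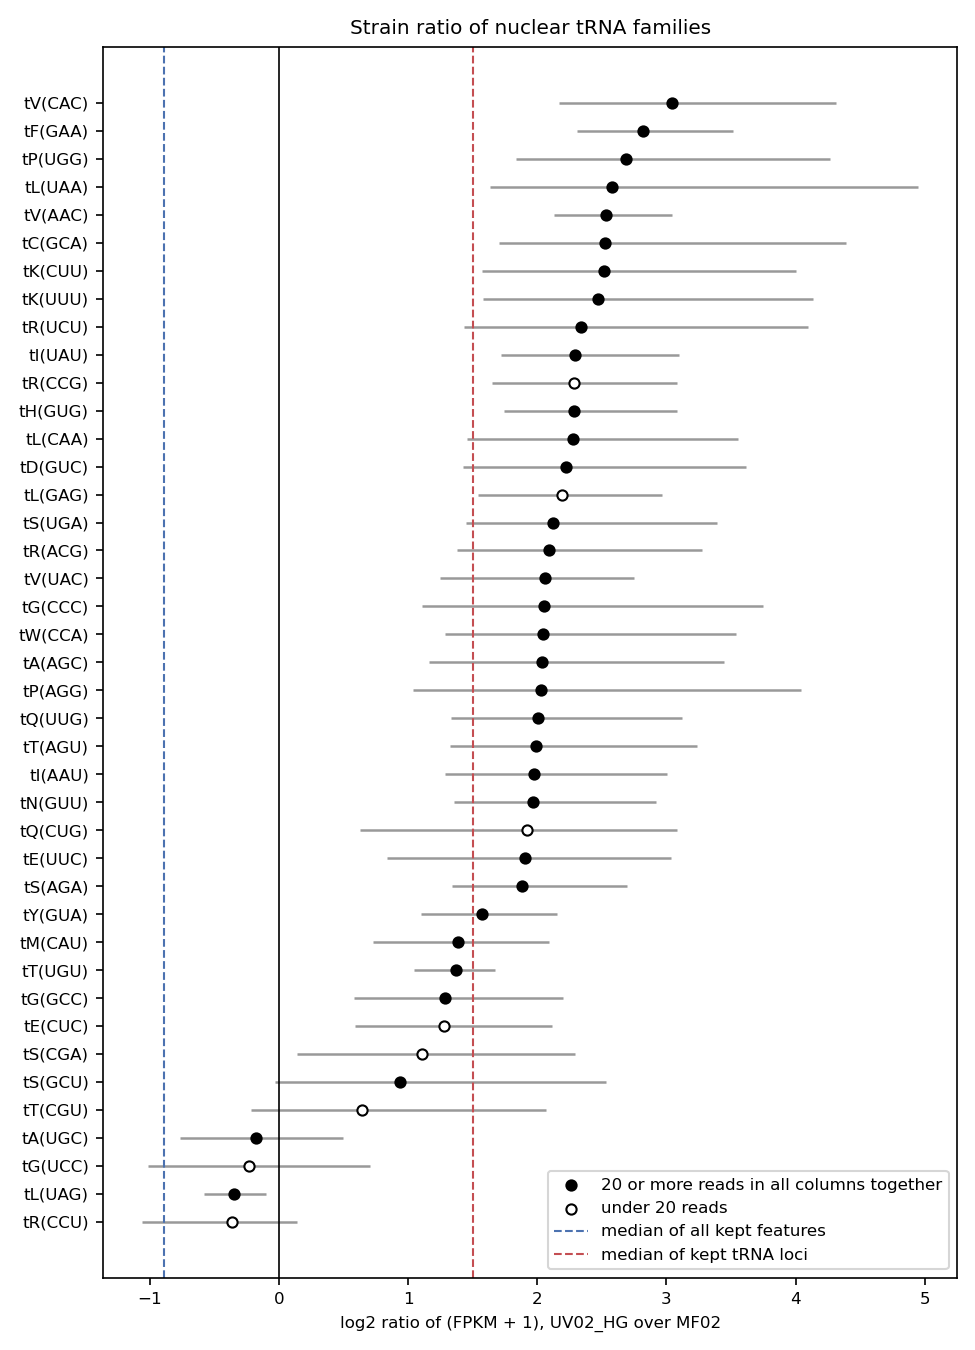
Log2 ratio of (summed FPKM + 1), UV02_HG over MF02, for each nuclear tRNA family, with the mean of columns as a point and the range over the 4 column pairs as a line; open points rest on under 20 reads. The dashed lines mark the medians of all kept features (-0.89) and of the kept tRNA loci (1.5), and tL(UAG) is the only family with at least 20 reads whose whole range lies below 0.

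Among families of at least 10 FPKM in either strain, next above these in ratio came glycine tG(GCC), threonine tT(UGU), methionine tM(CAU), tyrosine tY(GUA) and serine tS(AGA), with log2 ratios of 1.29, 1.37, 1.38, 1.57 and 1.88. The glycine family tG(GCC) had 78 and 110 reads in UV02_HG and 53 and 27 reads in MF02, without overlap, and a read ratio of 2.57 (1.97 to 3.38). As it was picked by its low ratio, that interval is no test against the pooled value. In the methionine family, loci of the initiator length had 27 and 41 reads in UV02_HG, against 15 and 13 in MF02, a read ratio of 2.66 (1.69 to 4.28). Loci of the elongator length had 6 and 10 reads in UV02_HG, against 5 and 0 in MF02, a read ratio of 3.50 (1.23 to 12.2). Those intervals overlap and cover counting error only, and a difference between initiator and elongator was not tested.

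The 6 nuclear families with a single gene had few reads. The leucine family tL(GAG) had 7 and 5 reads in UV02_HG, against 1 and 0 in MF02. The arginine family tR(CCG) had 5 and 7 reads in UV02_HG, against 1 and 0 in MF02. For tQ(CUG) the counts were 2 and 7 in UV02_HG, against 1 and 0 in MF02. Fewer reads still came from tS(CGA), tT(CGU) and tR(CCU), with at most 4 in any column, so their ratios of 1.11, 0.64 and -0.36 say little. The glutamate family tE(CUC) had 3 and 2 reads in UV02_HG, against 1 and 0 in MF02, at a log2 ratio of 1.27. The 3-copy family tG(UCC) was as low, with 1 and 2 reads in UV02_HG and 3 and 1 in MF02.

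Summed over amino acids, UV02_HG was higher for all 20. Lysine and serine tRNAs had the highest summed values in UV02_HG, at 408 and 406 FPKM on average, against 71.6 and 104 FPKM in MF02. Tryptophan tRNAs had the lowest, at 20.6 FPKM in UV02_HG and 4.26 FPKM in MF02. The log2 ratio was highest for phenylalanine, at 2.82, and lowest for alanine, at 1.0 (0.30 to 1.90), the amino acid of tA(UGC). Methionine at 1.38 and glycine at 1.54 came next.

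Copies with the same mature sequence had very unequal values. In the cysteine family, tC(GCA)B on chromosome II had 212 and 225 reads in UV02_HG, against 52 and 7 in MF02. That was 84.2% of the family's reads in UV02_HG. Copy tC(GCA)P1 had 33 and 44 reads in UV02_HG, against 24 and 7 in MF02. Copy tC(GCA)P2 had 2 and 3 reads in UV02_HG, against 1 and 0 in MF02. The copy on chromosome VII, tC(GCA)G, was at 0 in every column. A single copy thus led the 4 in both UV02_HG columns and in MF02 column 1, while in MF02 column 2 tC(GCA)B and tC(GCA)P1 were level. These copies differ outside the mature sequence. The flanks of the highest and of the empty copy are shown on the gene's strand, 40 nt on each side, from R64 chrII:643007-643078 (minus strand) and chrVII:707108-707179 (minus strand), with the first run of at least 5 T downstream in capitals. The authors' genome build is not given in the sources used here.
tC(GCA)B upstream: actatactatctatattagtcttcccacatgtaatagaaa
tC(GCA)B downstream: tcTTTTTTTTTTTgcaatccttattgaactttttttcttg
tC(GCA)G upstream: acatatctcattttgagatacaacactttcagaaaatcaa
tC(GCA)G downstream: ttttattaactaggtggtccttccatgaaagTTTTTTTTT

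The T run began 2 nt after the mature end of tC(GCA)B and 31 nt after that of tC(GCA)G. Other loci without reads had the run near or far, at 0 nt in tI(AAU)B and 26 nt in tF(GAA)G. In tT(CGU)K it began at 19 nt, and that locus had 5 reads in UV02_HG and 3 in MF02. A link between the position of the run and reads was not tested. A run of TTTTT lay within 20 nt downstream of 266 of 275 nuclear R64 tRNA genes, which is 96.7%, and in 6.91% of the windows of that length upstream. The exact string GGTTCGANNCC, a strict form of the B box searched on both strands, was in 127 of these genes, or 46.2%. It was in 1.45% of windows of the same length directly upstream. That string is in none of the genes of 23 families, tC(GCA) among them. The tC(GCA) sequence above holds agttcgatcct, which departs from the string at its first and last letters. A gene without the exact string may thus still hold a B box. A letter match is a description and not a measured site.

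**Figure D3:**
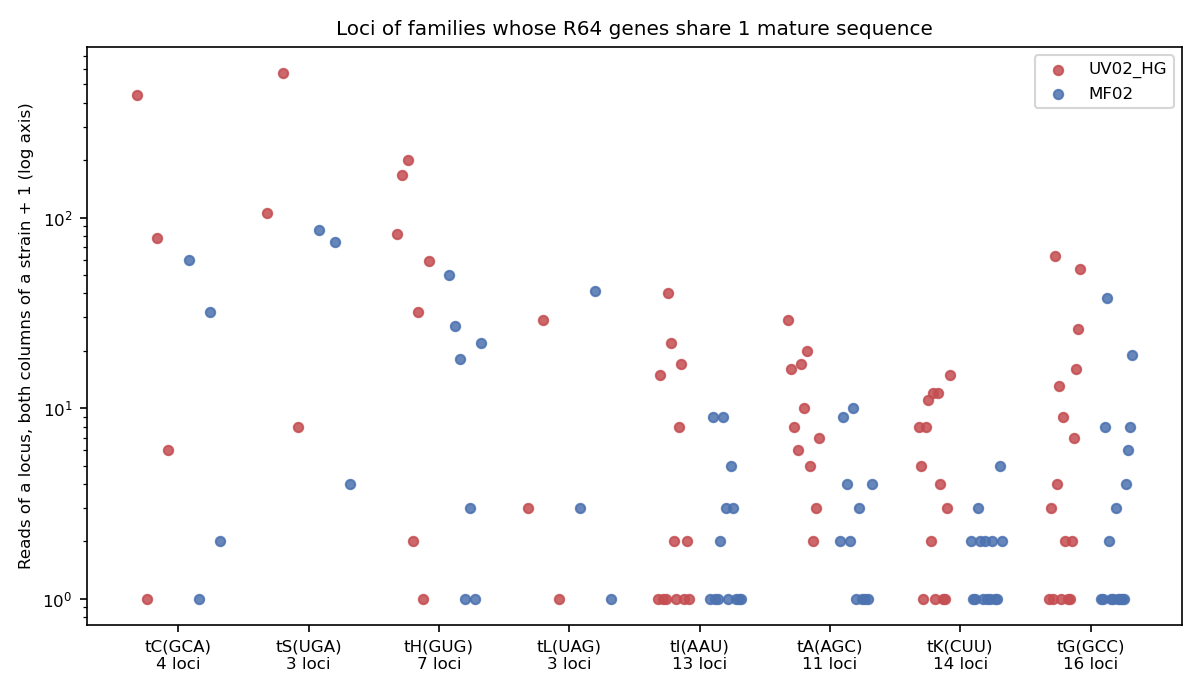
Reads + 1 per locus, summed over both columns of a strain, on a log axis for 8 families whose R64 genes share a single mature sequence, with UV02_HG (red) left of MF02 (blue) and each point a locus. In tC(GCA), tS(UGA) and tL(UAG) a single copy holds most of the UV02_HG reads, and the 4 tC(GCA) copies span 0 to 437 reads in UV02_HG.

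In the serine family tS(UGA) the copies had unequal ratios. Copy tS(UGA)I had 268 and 302 reads in UV02_HG, against 64 and 9 in MF02, a read ratio of 8.54 (6.68 to 11.1). Copy tS(UGA)E had 58 and 47 reads in UV02_HG, against 56 and 29 in MF02, a read ratio of 1.35 (1.01 to 1.82). Those intervals lie far apart, but they cover counting error only. Reads inside the shared mature sequence cannot be told apart between the copies, so a difference between the copies was not tested. Copy tS(UGA)I held 83.6% of the family's reads in UV02_HG, and tS(UGA)E held 52.8% over the pooled MF02 columns, but tS(UGA)I also led in MF02 column 1 and the order turned in MF02 column 2 alone. In the histidine family the order differed in both MF02 columns. Copy tH(GUG)G1 had 110 and 89 reads in UV02_HG, against 13 and 4 in MF02 (read ratio 12.8), and tH(GUG)E1 had 42 and 39 reads in UV02_HG, against 29 and 20 in MF02 (read ratio 1.81).

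The largest locus ratio with reads in both strains belonged to tV(AAC)M1, with 177 and 142 reads in UV02_HG, against 4 and 4 in MF02. It had 191 and 147 FPKM in UV02_HG, against 4.22 and 3.57 FPKM in MF02, a read ratio of 43.6 (21.9 to 102). This locus held 65.0% of the tV(AAC) reads in UV02_HG, whereas tV(AAC)G2 led the family in MF02 with 29.2%. In the phenylalanine family, tF(GAA)D on chromosome IV, which has the rarer mature form, had 27 and 57 reads in UV02_HG and 0 in both MF02 columns, at least 15.1-fold higher against a floor of 3 reads per column. The other gene with that form, tF(GAA)N, had 5 reads in UV02_HG and 3 in MF02. Copy tF(GAA)P1 had 129 and 138 reads in UV02_HG, against 21 and 6 in MF02, while tF(GAA)M had 16 and 12 reads in UV02_HG, against 13 and 13 in MF02. The arginine locus tR(UCU)B had 10 and 19 reads in UV02_HG and 0 in MF02, at least 5.22-fold higher. In R64 no run of 5 T lies in the 40 nt downstream of tR(UCU)B, where the gene tD(GUC)B follows, and the pair is known to be transcribed jointly. That neighbour had 4 and 4 reads in UV02_HG, against 4 and 0 in MF02. The other loci with high ratios, tI(AAU)G, tA(AGC)D, tL(CAA)M and tH(GUG)H, had between 13 and 23 reads in each UV02_HG column and at most 2 in any MF02 column.

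At the other end, tA(UGC)O had 5 and 5 reads in UV02_HG, against 29 and 13 in MF02. It was the only locus with at least 10 reads that was 2-fold lower, at a log2 ratio of -1.82 and a read ratio of 0.260 (0.117 to 0.527). The columns did not overlap. It held 75% of the tA(UGC) reads in MF02, and a different copy, tA(UGC)E, led the family in UV02_HG with 14 and 6 reads, against 5 and 8 in MF02. The value of the leucine family tL(UAG) came almost wholly from tL(UAG)L1, with 14 and 14 reads in UV02_HG, against 22 and 18 in MF02. The remaining loci of lowest ratio, tP(AGG)C, tS(GCU)L, tG(GCC)D2 and tM(CAU)P, had read ratios between 1.68 and 1.93.

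Across families, a single locus held over 50% of the UV02_HG reads in 17 of the 33 families with at least 20 UV02_HG reads. In 26 families with at least 20 reads in each strain, the leading locus over pooled columns was the same in both strains in 17. The top 10 loci held 39.8% of all tRNA reads in UV02_HG and 31% in MF02. Across the 133 nuclear loci with at least 10 reads, Spearman's rho was 0.81 between the UV02_HG columns, 0.69 between the MF02 columns and 0.66 between the strains, a description of loci that share libraries and, in part, sequence.

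Loci without a read were found in families of most sizes. In all 4 columns 77 loci were at 0, of which 53 were nuclear. By family size, 0 of 6 single-copy loci were at 0, 6 of 32 loci in families of 2 to 4, 5 of 55 in families of 5 to 9, and 42 of 181 in families of 10 or more. Summed level went with copy number across the 41 families, with Spearman's rho of 0.62 in UV02_HG and 0.58 in MF02, again a description of points from the same libraries. Among families of at least 10 FPKM in either strain the UV02_HG value was 0.33. Any loss of reads that match several copies would touch this relation too. Per locus the family level still ranged between 0.540 FPKM in tG(UCC) and 108 FPKM in tS(UGA) in UV02_HG. By chromosome the median locus ratio was positive on all 16, between 1.08 on chromosome III and 2.32 on chromosome II, and chromosome XIII was the only one with 0 of its 21 loci at 0.

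Introns are found in 60 nuclear R64 tRNA genes of 10 families. Their kept loci had a median log2 ratio of 1.62, with 37 of 49 at least 2-fold higher in UV02_HG, against 1.43 in the other families, with 106 of 152 higher. These shares, 75.5% and 69.7%, were near the 71.1% of all kept tRNA loci. Of all kept features 14.7% passed the same fold. Between family medians the difference was 0.13, and it turned to -0.23 with a pseudocount of 5. The first anticodon base, which pairs with the third codon base, made little difference either, with median locus ratios of 1.33 for A, 1.63 for C, 1.5 for G and 1.48 for U.

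All 24 mitochondrial tRNA loci were listed at 0 in every column, so no ratio could be given for them. Of the other 31 mitochondrial features 14 were also at 0 throughout. RPM1, the RNA of mitochondrial RNase P, was listed at 0 in every column, and the mitochondrial ribosomal RNA 15S_rRNA had 0 and 0.279 FPKM in UV02_HG, against 0 and 0.0400 FPKM in MF02. The other mitochondrial ribosomal RNA, 21S_rRNA, was higher, with 3.03 and 0.442 FPKM in UV02_HG, against 2.54 and 0.841 FPKM in MF02. The subunit 9 gene of the mitochondrial ATP synthase, Q0130, had 97.3 and 196 FPKM in UV02_HG, against 22.7 and 7.43 FPKM in MF02. Zeros in mitochondrial tRNA thus stood beside low values of the mitochondrial ribosomal RNAs and higher values of Q0130, and say only how these loci are listed.

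tRNA ratios did not follow those of neighbouring coding genes. For 76 loci placed at a single R64 gene and with at least 10 reads, Spearman's rho between the locus ratio and that of the nearest coding gene was 0.0486, a description over loci of the same libraries. The locus ratio was positive in 75 of them and the neighbour's in 26. Next to tQ(UUG)H, which had 232 reads in UV02_HG and 48 in MF02, MIP6 had 0.888 and 1.08 FPKM in UV02_HG, against 0.631 and 0.333 FPKM in MF02, so few reads lay in the gene beside it. Next to tC(GCA)B, YBR209W had 110 and 107 FPKM in UV02_HG, against 14.3 and 1.66 FPKM in MF02, a log2 ratio of 3.61. Next to tA(UGC)O, YOR289W stood higher in UV02_HG, with 541 and 501 FPKM, against 341 and 143 FPKM in MF02, while the tRNA locus stood lower.

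Protein genes that make and use tRNA lay on the other side. Of 153 listed genes 152 were kept, of which 12 passed 2-fold higher in UV02_HG and 104 passed 2-fold lower, against 14.7% and 47.2% of all kept features. Their median log2 ratio was -1.46 (-2.0 to -0.63), and -0.73 without MF02 column 2. Relative to coding genes of like length the median was -0.10, and 21 passed 2-fold on the higher side and 23 on the lower. The share of all coding genes past 2-fold on that relative scale is not given here. Counts relative to length, here and for the lists below, therefore have no background beside them. By the median alone, the listed genes as a class lay close to coding genes of their length.

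Of the 10 subunits specific to RNA polymerase III, 2 passed 2-fold higher and 6 lower, against 14.7% and 47.2% of all kept features. Among coding genes over 300 nt, 8.35% passed 2-fold higher and 53.9% lower. The median of the 10 subunits was -1.23, or -0.0615 relative to length (0 higher and 1 lower) and -0.52 without MF02 column 2. The largest subunit, RPO31, had 2.85 and 3.69 FPKM in UV02_HG, against 7.79 and 36.5 FPKM in MF02. RPC37, which takes part in termination, had 3.77 and 5.51 FPKM in UV02_HG, against 22.4 and 58.6 FPKM in MF02, a log2 ratio of -2.88 and -2.20 relative to length. The 2 higher members were RPC11 and RPC17. Of the initiation factors TFIIIB and TFIIIC and the repressor MAF1, 9 of 10 were at least 2-fold lower, against the same 47.2%. Their median was -1.40, or -0.0073 relative to length (1 higher and 1 lower) and -0.66 without MF02 column 2. BDP1, a TFIIIB subunit, had 3.05 and 4.21 FPKM in UV02_HG, against 13.4 and 37.7 FPKM in MF02. MF02 column 2 was above column 1 in RPO31, RPC37 and BDP1, the reverse of the tRNA loci.

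End processing was mixed, with 4 of 13 genes past 2-fold higher and 5 lower, against 14.7% and 47.2% of all kept features. The median of -0.65 was 0.79 relative to length (3 higher and 2 lower) and changed sign under most other scalings. POP8, a protein subunit of RNase P, had 246 and 398 FPKM in UV02_HG, against 83.0 and 53.5 FPKM in MF02, and POP5, POP6 and POP7 of the same enzyme were the other higher members. RPR2, the subunit that sets RNase P apart from RNase MRP, had 4.6 and 8.64 FPKM in UV02_HG, against 39.2 and 60.6 FPKM in MF02. Its log2 ratio of -2.74 was -3.25 relative to length. Of 6 splicing genes 0 passed 2-fold higher and 2 lower, with a median of -0.13 that was 0.41 relative to length (1 higher and 0 lower) and 0.23 without MF02 column 2. SEN2, a catalytic subunit of the tRNA splicing endonuclease, was at -1.57, and SEN34, the other catalytic subunit, at 0.70. In nuclear transport 5 of 7 were lower, with a median of -1.56, or -0.92 without MF02 column 2, among them MEX67 at -2.34 and MTR10 at -2.01. Relative to length the transport median was -0.43, with 1 gene past 2-fold higher and 0 lower.

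**Figure D4:**
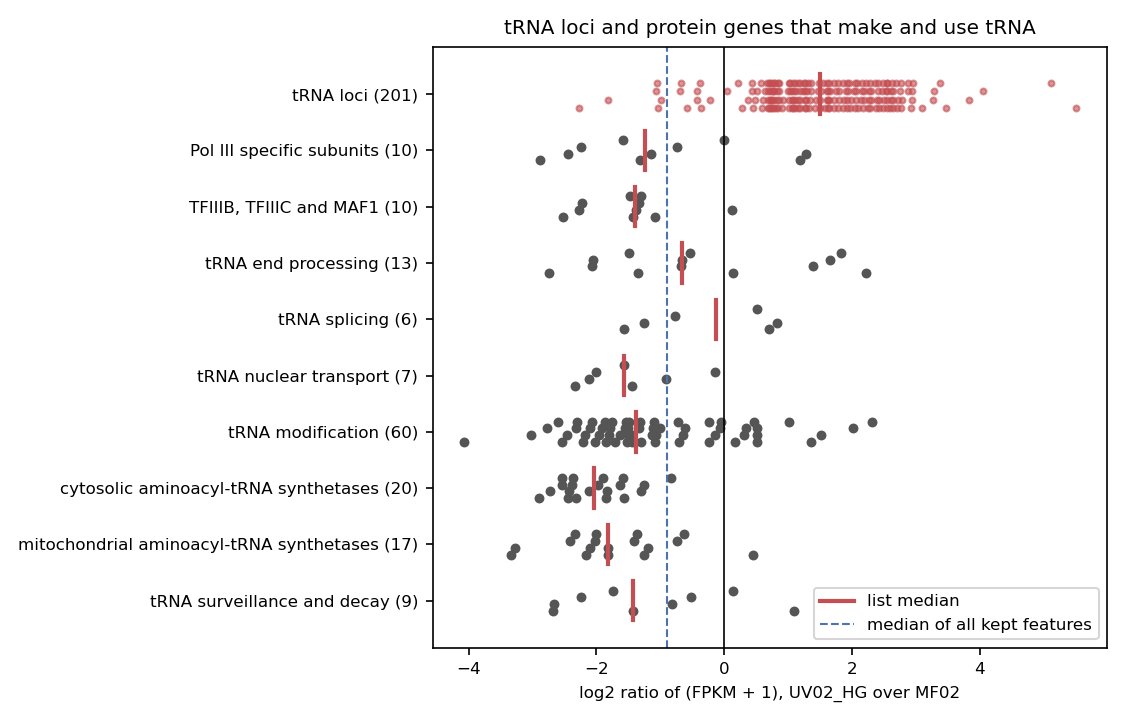
Log2 ratio of (FPKM + 1), UV02_HG over MF02, for the 201 kept tRNA loci and for each kept gene of 9 lists of tRNA pathway genes, with list medians in red and the median of all kept features dashed. The tRNA loci centre on 1.5 and the list medians lie between -2.04 (cytosolic synthetases) and -0.13 (splicing).

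Among 60 modification genes 5 passed 2-fold higher and 39 lower, against 14.7% and 47.2% of all kept features. Their median was -1.38, or 0.0225 relative to length (11 higher and 10 lower) and -0.54 without MF02 column 2. TRM140, which methylates a cytosine of the anticodon loop in some serine and threonine tRNAs, had 3.86 and 6.05 FPKM in UV02_HG, against 47.2 and 152 FPKM in MF02, a log2 ratio of -4.08. UBA4, an activating enzyme of the pathway that thiolates the wobble uridine, was at -3.02, and NCL1, a cytosine methyltransferase, at -2.77. Of the 20 kept cytosolic synthetases 19 were at least 2-fold lower and none was higher, with a median of -2.04, or -0.46 relative to length (0 higher and 4 lower). DPS1, the aspartate enzyme, had 38.4 and 53.6 FPKM in UV02_HG, against 232 and 387 FPKM in MF02. GLN4, the glutamine enzyme, had 3.72 and 3.88 FPKM in UV02_HG, against 14.4 and 54.9 FPKM in MF02. Without MF02 column 2 the cytosolic synthetase median was -1.07.

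Among the 17 mitochondrial synthetase genes 14 were at least 2-fold lower, against 47.2% of all kept features. Their median was -1.82, or -1.27 without MF02 column 2. Relative to length their median was -0.41, with 1 gene past 2-fold higher and 3 lower. MSD1, the aspartate enzyme of mitochondria, was at -3.33 and NAM2, the leucine enzyme, at -3.27. Of 9 surveillance and decay genes 1 was higher and 5 lower, with a median of -1.43, or -0.74 without MF02 column 2. Relative to length the median was -0.12, with 3 higher and 2 lower. RAT1, a nuclear exonuclease that acts in rapid tRNA decay, was at -2.68, and XRN1, its cytoplasmic counterpart, at -2.24.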

How the data were processed

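RNA was measured by sequencing in 2 strains with 1 sample each. The authors deposited FPKM values for 7163 features, per the file headers in 2 columns per strain, which were treated as runs of 1 sample since GEO lists 1 sample per strain and the labels do not describe separate cultures, although the design text speaks of duplicates. Other per-sample columns numbered 0, and 4 rows without values were not used here. The submitters' processing notes name HTSeq 0.6.1, TopHat2 2.0.12 and Bowtie2 2.2.3. Not given in the sources used here are the genome build, the strand setting and the treatment of reads with several matches.

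The strain value is the mean of the columns, and a ratio is the log2 of (FPKM + 1) in UV02_HG over that in MF02. Kept were 6291 features with a mean of 1 FPKM or more in UV02_HG or MF02. Reads were recovered from FPKM, the mature length in NCBI RefSeq's R64 and the library total, which was itself inferred from the FPKM and lengths of coding genes. Read ratios compare reads over library totals, with exact Clopper-Pearson 95% intervals, and the floor is 3 reads per column. Values relative to length subtract the running median of the coding genes nearest in length.

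The members and lists were chosen with earlier results of these data known. Named loci are the 10 highest and 10 lowest ratios among loci of at least 10 FPKM and those at 0 in 1 strain. Named families are the 8 highest levels in each strain, the 8 highest and 8 lowest ratios among families of at least 10 FPKM in either strain, and the single-copy, methionine and intron families. Pathway genes are up to 4 per list. Other loci, families, neighbouring genes and noncoding RNAs were named after their values were seen. Alternatives were pseudocounts of 0.1 and 5, 4 other scalings, 2 other filters, fold thresholds of 1.5 and 4, leaving out each column, family medians, nuclear loci alone and the sum without the highest locus. The filter of 10 reads and the length comparison were added after seeing the data. The statistics were tested on simulated data. The software was matplotlib 3.10.9, scipy 1.17.1, pandas 2.3.3 and numpy 2.4.6 under Python 3.11.15.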

Additional observations from a re-analysis of the deposited data

How the results depend on the processing

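The direction of the tRNA locus median, the nuclear sum and the pathway median, and more families higher than lower, held under every alternative run, while sizes moved. The locus median (1.5) was 2.12 and 0.75 with pseudocounts of 0.1 and 5, 0.79 with equal FPKM totals, 2.39 with centring on the median feature, 0.86 with no filter and 1.2 to 2.25 with a column left out, the last without MF02 column 1. The count of loci 2-fold higher (143) was 72 with a pseudocount of 5, 90 with equal totals, 66 with a filter of 10 FPKM and 67 at 4-fold. The count of loci 2-fold lower (5) was 1 with a pseudocount of 5, centring, 10 FPKM, 10 reads or a 4-fold threshold, 2 with upper quartile scaling, 3 with trimmed mean of M values, 8 at 1.5-fold, 10 with equal totals and 1 to 11 with a column left out (11 without UV02_HG column 1 or MF02 column 2, 9 without UV02_HG column 2 and 1 without MF02 column 1). The nuclear sum ratio (2.16) was 1.15 with equal totals and 1.56 to 3.20 with a column left out, the higher value without MF02 column 1. Families 2-fold higher (35) numbered 23 at 4-fold and 26 with equal totals. Families 2-fold lower (0) numbered 2 with equal totals and 0 to 1 with a column left out. The intron difference (0.13) was 0.17 and -0.23 with pseudocounts of 0.1 and 5, 0.24 with 10 FPKM and 0.039 to 0.28 with a column left out. The copy number correlation (0.62) was 0.59 with upper quartile and with trimmed mean scaling, 0.33 with 10 FPKM and 0.59 to 0.62 with a column left out. The pathway median (-1.46) was -2.57 with equal totals, -0.57 with centring, -0.61 with trimmed mean scaling, -0.10 relative to length and -1.94 to -0.73 with a column left out, the smaller in size without MF02 column 2. Reversed list medians were end processing (-0.65), at 0.041, 0.24, 0.17 and 0.79 with upper quartile scaling, centring, trimmed mean scaling and length, splicing (-0.13), at 0.55, 0.76, 0.69 and 0.41 with these, 0.51 with 10 FPKM and -0.38 to 0.23 with a column left out (0.23 without MF02 column 2), and modification (-1.38), at 0.0225 with length. The causes were not tested. Other scalings shifted the median of all features by -1.07 (equal totals), 0.65 (upper quartile), 0.89 (centring) and 0.79 (trimmed mean), and the share higher among features past 2-fold was 23.8% as deposited and 6.99%, 47.3%, 58.1% and 53.5% in that order.

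The mitochondrial tRNA sum gave no ratio under any setting, since all loci were at 0. No paired analysis was possible because there is 1 sample per strain. Depth limits single loci: 74 and 75 loci had at least 10 reads in the UV02_HG columns, and 39 and 10 in the MF02 columns.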
